A study of Homo sapiens with 9 samples.

Results

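GRP94 and the calnexin-calreticulin cycle were followed through 10 genes, taken by name out of the 61544 genes counted in the series: HSP90B1, which encodes GRP94, its co-factors CNPY2 and CNPY3, the lectin chaperones CALR (calreticulin) and CANX (calnexin), the glucosyltransferases UGGT1 and UGGT2, and the glucosidase genes MOGS, GANAB and PRKCSH. RNA-Seq was performed on H1975 cells, a human lung adenocarcinoma line with mutant EGFR. All 9 libraries came from cells given si78, an siRNA whose target lies in the 3′ untranslated part of HSPA5, the GRP78 gene, for 24 h. The cells were then transfected for 48 h with the empty pcDNA3 plasmid (vector), with FLAG-tagged wild-type GRP78, F-78(WT), or with FLAG-tagged GRP78 whose nuclear localization signal was mutated from lysine to alanine, F-78(NLS Mut), and each group had 3 libraries. Cells without si78 were not part of these groups, so every difference below is between plasmids on a background of depleted endogenous GRP78, in 1 cell line and with GRP78 produced from a plasmid.

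GRP94 is the member of the HSP90 family that resides in the endoplasmic reticulum (ER), where it completes the folding of a restricted set of client proteins such as integrins, Toll-like receptors and LRP6. Calnexin and calreticulin instead bind glycoproteins through a glucose left on the N-linked glycan: glucosidase I (MOGS) and glucosidase II (GANAB and PRKCSH) trim the glucoses, the lectins hold the protein while PDIA3 (ERp57) oxidizes it, and UGGT1 puts a glucose back on a protein that is still misfolded. Both systems work beside GRP78 in the ER lumen, and several of their genes are well-known targets of the unfolded protein response.

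The libraries held between 17671055 and 27476298 reads assigned to genes. HSPA5 was higher in both GRP78 plasmid groups than with vector. Its level, in TMM-scaled CPM (reads of the gene relative to the library's total), was 359, 383 and 391 in the vector libraries, 5031, 5814 and 6145 in the F-78(WT) libraries and 4961, 5156 and 4765 in the F-78(NLS Mut) libraries, and plasmid and endogenous transcripts are counted together. Between the GRP78 plasmids HSPA5 was 14.2% higher with F-78(WT), a log2 fold change of 0.19 with an adjusted p of 0.0795 in edgeR and 0.0448 in DESeq2, and it passed the test under 9 of 19 other settings. The 6 epithelial markers were each detected at 184 CPM or more, the lineage marker NKX2-1 at 21.5 to 31.6 CPM, and NAPSA and SFTPB at 3.28 CPM or less. The fibroblast marker DCN was at 0 in every library, the leukocyte marker PTPRC reached at most 0.275 CPM and the endothelial marker PECAM1 at most 5.74 CPM. The vector libraries differed from each other in GC content: the slope of log2 level per 10 points of GC content of the gene was -0.043 in vector replicate 1 and 0.10 and 0.11 in vector replicates 2 and 3. The 6 libraries with a GRP78 plasmid had slopes from -0.075 to 0.031, so vector replicate 1 lay within their range and vector replicates 2 and 3 above it, which bears on every comparison with vector.

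The ER stress response element (ERSE), which reads CCAAT, 9 bases of any kind and CCACG, is the sequence through which ATF6 and NF-Y act on ER chaperone genes. It was searched on both strands in RefSeq promoter windows of GRCh38.p14, each from 250 bases before to 50 bases after an annotated start. Windows were found for 9 of the 10 members, without MOGS. An ERSE stood in a window of HSP90B1, CALR and CANX, that is 3 of these 9 genes, compared with 25 of all 27305 genes with a window (0.0916%). The element is known from ER chaperone genes, so its presence in members of that kind is background and not a result of these libraries. The HSP90B1 window held an ERSE on each strand, and it was the only window among all genes with more than 1 copy. The part of the element in any difference below was not tested. The copies are printed for every member that carries one, including CANX, which did not pass the test in any comparison. Each is shown 5′ to 3′ on the strand on which it reads as CCAAT, with both conserved ends in capitals.
HSP90B1, copy beginning 194 bases before the start, chr12:103930216-103930234, plus strand: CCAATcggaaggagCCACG
HSP90B1, copy in the 89 to 71 bases before the start, chr12:103930321-103930339, minus strand: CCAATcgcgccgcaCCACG
CALR, copy in the 225 to 207 bases before the start, chr19:12938384-12938402, minus strand: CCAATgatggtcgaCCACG
CANX, copy shared by 3 overlapping windows, chr5:179698778-179698796, plus strand: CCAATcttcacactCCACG

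The stretch of the HSP90B1 promoter that holds both copies, chr12:103930206-103930349 on the plus strand, is 144 bases long and has 86 bases between the copies, whose conserved ends are again in capitals.
HSP90B1 promoter: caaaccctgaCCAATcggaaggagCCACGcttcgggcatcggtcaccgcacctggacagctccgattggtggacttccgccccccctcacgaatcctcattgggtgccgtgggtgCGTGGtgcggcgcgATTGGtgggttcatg
The related ERSE-II, ATTGG, 1 base of any kind and CCACG, was in no window of the members and in 19 of the 27305 genes. The E-box, CANNTG, was in a window of all 9 genes and of 73.1% of all genes, and the narrower CACGTG within it was in a window of HSP90B1, CNPY2, CNPY3 and CANX, 4 of the 9 genes, compared with 8.78% of all genes. A match describes the letters in a window and was not tested for binding.

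All 10 members passed the filter on low counts. Per kilobase of exon, the order of their mean levels was the same in the 3 groups: CALR, HSP90B1, CANX, GANAB, PRKCSH, CNPY3, MOGS, UGGT1, UGGT2 and, by an uncertain row, CNPY2. In the vector libraries CALR stood at 764 ± 67.6 CPM per kilobase (SD, n = 3), HSP90B1 at 519 ± 4.62 and CANX at 184 ± 6.70. GANAB and PRKCSH, the catalytic and the regulatory subunit of glucosidase II, stood at 137 ± 5.44 and 105 ± 10.3. UGGT1 was at 18.8 ± 0.949 CPM per kilobase and its paralog UGGT2 at 4.54 ± 0.398. Neighbours in this order did not overlap between libraries, except CNPY3 and MOGS in the vector group and MOGS and UGGT1 in the F-78(WT) group. The lengths are those of all annotated exons merged, so a level per kilobase is lowered for a gene with long exons that these cells do not use.

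**Figure D1:**
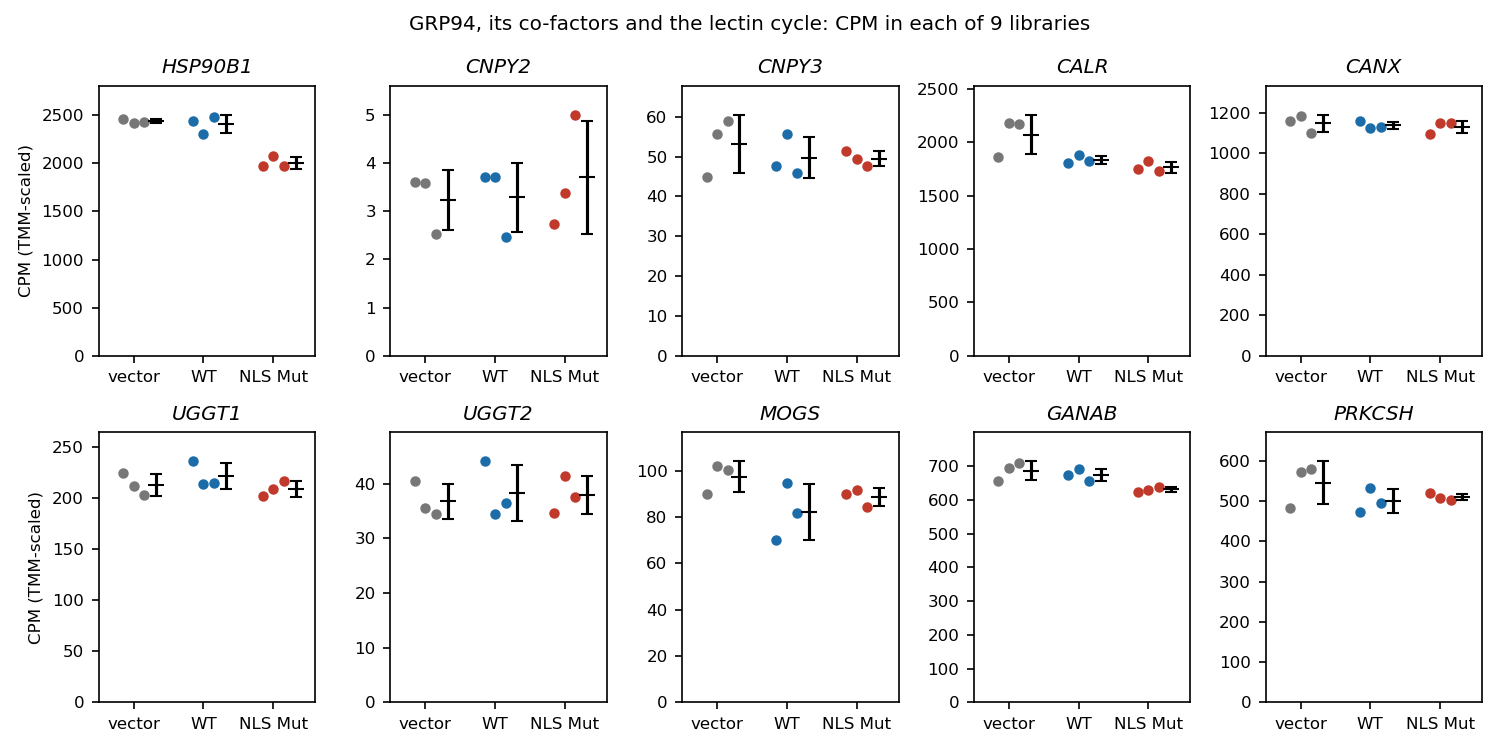
CPM of each member in each of the 9 libraries, by group (vector, grey; F-78(WT), blue; F-78(NLS Mut), red; replicates 1 to 3 from left to right), with the mean and SD of 3 libraries in black and every vertical axis starting at 0. HSP90B1 was between 1968 and 2070 CPM in the F-78(NLS Mut) libraries and between 2306 and 2480 CPM in the other 6.

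HSP90B1, the GRP94 gene, was lower in cells with F-78(NLS Mut) than in either other group and did not differ detectably between F-78(WT) and vector. It is among the genes the study singled out from these libraries, so its call is not independent evidence. Outside these libraries, the paper reports that HSP90B1 was also higher with F-78(WT) than with the mutant in another lung cancer line. It further reports a rise of HSP90B1 mRNA under thapsigargin in a normal lung epithelial line. The gene lies at chr12:103930107-103953645 on the plus strand (GRCh38, GENCODE 29), and its row counted exons of 4695 bases. This span begins before the RefSeq start used for the promoter window, so both ERSE copies lie inside it. Its level was 2461, 2419 and 2430 CPM in the vector libraries, 2441, 2306 and 2480 CPM in the F-78(WT) libraries and 1968, 2070 and 1968 CPM in the F-78(NLS Mut) libraries. All 3 F-78(NLS Mut) libraries lay below the other 6, while the vector and F-78(WT) libraries overlapped. The level was 20.3% higher with F-78(WT) than with the mutant, a log2 fold change of 0.27 with an SE of 0.041 and an adjusted p of 0.000574. Compared with vector, HSP90B1 RNA fell by 17.8% in these cells, a log2 fold change of -0.28 with an SE of 0.041 and an adjusted p of 0.000268. These comparisons share the F-78(NLS Mut) libraries, so they are not independent of each other. Between F-78(WT) and vector the log2 fold change was -0.02, with a 95% interval from -0.10 to 0.07 and an adjusted p of 0.921. In both comparisons that involve F-78(NLS Mut), HSP90B1 kept its direction and its call under all 19 other settings tried. The part of the unequal HSPA5 levels of the GRP78 plasmids in this result was not tested. Tests were made with the quasi-likelihood method of edgeR, adjusted over all 18653 genes tested, and genes with an adjusted p under 0.05 count as called. Nothing in the labels says whether the libraries of a group came from separate cultures, so p-values measure the spread between these libraries only.

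Reads that fall in overlapping genes are discarded in a count that ignores strand, which bears on HSP90B1. Its exons overlap TTC41P and C12orf73 on the opposite strand by 105 and 121 bases and the microRNA gene MIR3652 on its own strand. The unstranded count held between 74.3% and 75.9% of the reads that the forward and the reverse strand columns assign to the gene together, and this share was between 74.7% and 75.1% with F-78(NLS Mut). With both strand columns summed, HSP90B1 was at 2897, 2775 and 2794 CPM with vector, 2871, 2677 and 2928 CPM with F-78(WT) and 2296, 2412 and 2295 CPM with F-78(NLS Mut). On these sums the log2 fold change of F-78(WT) relative to F-78(NLS Mut) was 0.28, with an adjusted p of 0.000501. The pseudogenes HSP90B2P and HSP90B3P, which resemble HSP90B1, held at most 29 and 8 reads in a library.

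The co-factor genes did not pass the test in any comparison. CNPY3 guides Toll-like receptors to GRP94, and its level was 44.9, 55.7 and 58.8 CPM with vector, 47.6, 55.6 and 45.9 CPM with F-78(WT) and 51.3, 49.5 and 47.6 CPM with F-78(NLS Mut). The groups overlapped, and the log2 fold change of F-78(WT) relative to F-78(NLS Mut) was 0.01, with a 95% interval from -0.19 to 0.20. The CNPY2 row had 2.46 to 4.99 CPM, and 95% intervals as wide as -0.72 to 0.40. This row is uncertain: the gene shares 28.2% of its exonic bases with the read-through gene ENSG00000144785 on its own strand and overlaps an antisense gene, CNPY2-AS1. The CNPY2-AS1 row held 8 to 32 reads a library in the unstranded column and 1327 to 2512 in the strand columns summed, so most reads of this locus were left out of the unstranded counts, and the CNPY2 values describe that row and not the expression of the gene.

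Of calreticulin and calnexin, the soluble and the membrane-bound lectin of the cycle, CALR passed the test in 1 comparison and CANX in none. CALR lies at chr19:12938578-12944489 on the plus strand, and its level was 1861, 2183 and 2174 CPM with vector, 1804, 1876 and 1821 CPM with F-78(WT) and 1746, 1821 and 1727 CPM with F-78(NLS Mut). All F-78(NLS Mut) libraries lay below all vector libraries, the F-78(WT) libraries overlapped both groups, and vector replicate 1 was nearer to the GRP78 plasmid libraries than to the other vector libraries. CALR fell with F-78(NLS Mut) against vector, by 14.8% (log2 fold change -0.23, SE 0.050, adjusted p = 0.0183). Against vector, F-78(WT) gave a log2 fold change of -0.18 with an adjusted p of 0.107, and F-78(WT) relative to F-78(NLS Mut) gave 0.06 with a 95% interval from -0.05 to 0.16 and an adjusted p of 0.738. The F-78(NLS Mut) call was lost without vector replicate 2 or 3 or without F-78(NLS Mut) replicate 1 or 3, where the log2 fold change stayed between -0.23 and -0.20 and adjusted p was between 0.1 and 0.135. The log2 fold change was -0.15 with an adjusted p of 0.0435 after correction for GC content and length. Without vector replicate 1 the fall was larger in F-78(NLS Mut) cells (log2 fold change -0.31) and the F-78(WT) difference passed the test as well (log2 fold change -0.25, adjusted p = 1.32e-05), whereas with GC content and length corrected for it was -0.09 with an adjusted p of 0.346.

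CANX had 1161, 1183 and 1102 CPM with vector, 1160, 1126 and 1132 CPM with F-78(WT) and 1098, 1151 and 1149 CPM with F-78(NLS Mut), and all groups overlapped. The 95% interval of its log2 fold change was -0.08 to 0.10 for F-78(WT) relative to F-78(NLS Mut), -0.10 to 0.08 for F-78(WT) against vector and -0.11 to 0.07 for F-78(NLS Mut) against vector. The HSP90B1 values of 0.27 and -0.28 lay outside the CANX intervals of the same comparisons. Whether CANX differed in its response from HSP90B1 or from CALR was not tested.

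**Figure D2:**
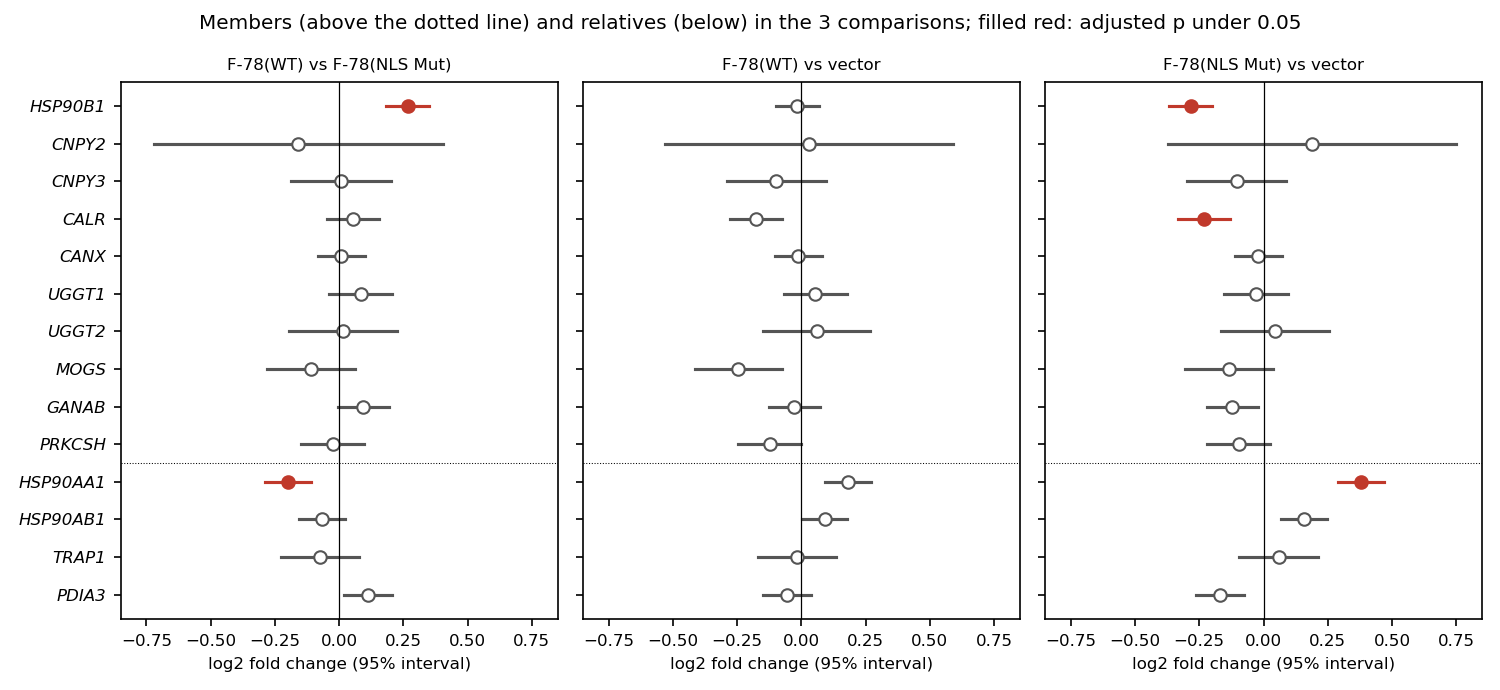
Log2 fold change (points) and 95% interval (lines) of the members and 4 relatives in the 3 comparisons, with filled red points for an adjusted p under 0.05. HSP90B1 is at 0.27 in the first panel and at -0.28 in the last, CALR is called in the last panel alone, and HSP90AA1 lies on the side opposite to HSP90B1 in both.

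The glucosyltransferases, which send misfolded glycoproteins back to the lectins, did not pass the test. UGGT1 was at 224, 212 and 203 CPM with vector, 236, 213 and 215 CPM with F-78(WT) and 201, 208 and 216 CPM with F-78(NLS Mut), with overlap between all groups. Its log2 fold change of F-78(WT) relative to F-78(NLS Mut) was 0.08, with an interval from -0.04 to 0.21. UGGT2 ranged from 34.4 to 44.1 CPM over the 9 libraries, and its log2 fold changes were between 0.01 and 0.06.

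Among the glucosidases, GANAB, the catalytic subunit of glucosidase II, had the most even replicates. It was at 656, 695 and 709 CPM with vector, 673, 693 and 656 CPM with F-78(WT) and 624, 631 and 639 CPM with F-78(NLS Mut), so the F-78(NLS Mut) libraries lay below all others. The log2 fold change of F-78(NLS Mut) against vector was -0.12, but with an adjusted p of 0.273 it did not pass the test, and F-78(WT) relative to F-78(NLS Mut) gave 0.09 with an adjusted p of 0.464. PRKCSH, the subunit that retains glucosidase II in the ER, had 484, 572 and 579 CPM with vector, 474, 532 and 496 CPM with F-78(WT) and 519, 507 and 503 CPM with F-78(NLS Mut), with overlap throughout. MOGS, which removes the outermost glucose, had 89.9, 102 and 100.2 CPM with vector, 70.2, 94.7 and 81.6 CPM with F-78(WT) and 89.8, 91.8 and 84.4 CPM with F-78(NLS Mut). The F-78(WT) libraries of MOGS were spread the most, and relative to vector the log2 difference was -0.24 with an adjusted p of 0.203.

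For PRKCSH, MOGS, CNPY3 and GANAB, as for CALR, vector replicate 1 was the lowest vector library. The longest annotated transcripts of PRKCSH, MOGS and CNPY3 are 61.0%, 61.3% and 59.7% G or C. Those of CALR and GANAB are 53.9% and 53.6%, against 41.2% for HSP90B1 and 41.6% for CANX. The log2 difference of vector replicate 1 from the mean of replicates 2 and 3 was -0.35 for CNPY3, -0.25 for PRKCSH, -0.23 for CALR, -0.17 for MOGS and -0.10 for GANAB, but 0.02 for HSP90B1 and CANX and 0.21 for UGGT2. The uncertain CNPY2 row, at 57.2% G or C, went the other way at 0.26. Without vector replicate 1, PRKCSH and MOGS passed the test as lower with F-78(WT) than with vector, and PRKCSH and GANAB as lower with F-78(NLS Mut). After correction for GC content and length the F-78(WT) against vector values of PRKCSH and MOGS were instead -0.0043 and -0.11, and the F-78(NLS Mut) against vector values of PRKCSH and GANAB were 0.02 and -0.07, and none of these passed the test. The part of GC content in the difference was not tested.

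**Figure D3:**
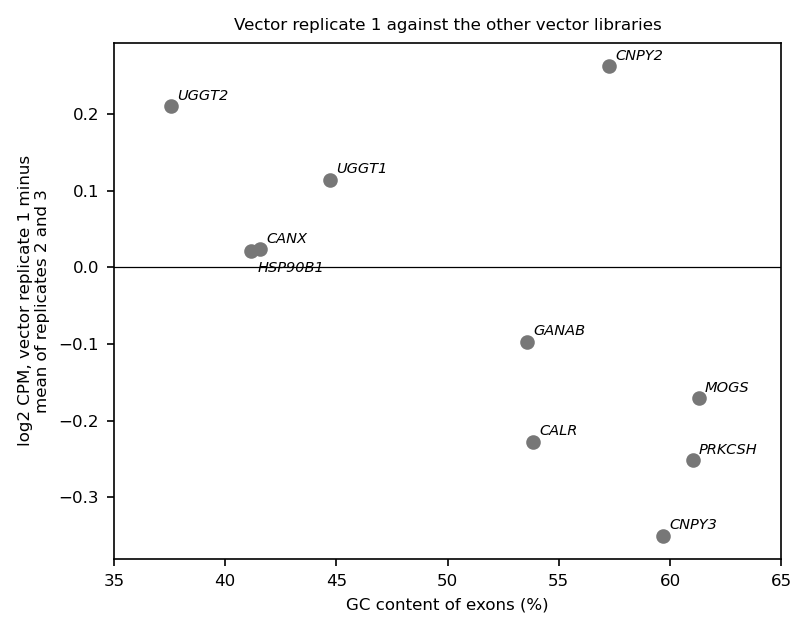
For each member, the GC content of its longest annotated transcript (horizontal, labelled as exons, in percent) against the log2 CPM of vector replicate 1 minus the mean of vector replicates 2 and 3 (vertical). HSP90B1 and CANX lie at 0.02, whereas GANAB, CALR, MOGS, PRKCSH and CNPY3 lie between -0.35 and -0.10, and CNPY2, whose row is uncertain, lies apart at 0.26.

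Over the 10 members, HSP90B1 alone was called in F-78(WT) relative to F-78(NLS Mut), where 0.504% of all genes tested were called and 0.3% were called higher. In F-78(NLS Mut) against vector 2 of 10 members were called, both lower, where 0.793% of all genes were called and 0.499% were called lower. In F-78(WT) against vector edgeR called none of the 10 members and 0.558% of all genes, DESeq2 called none of them either, and CALR and MOGS had an unadjusted p under 0.05. Groups did not overlap for 2 members (HSP90B1 and GANAB) in F-78(WT) relative to F-78(NLS Mut), where 17.7% of all genes did not overlap, for none in F-78(WT) against vector, where 13.1% did not, and for 3 members (HSP90B1, CALR and GANAB) in F-78(NLS Mut) against vector, where 18.1% did not. The median log2 fold change over the members was 0.01, -0.02 and -0.10 in the 3 comparisons, in the order just given for F-78(WT) relative to F-78(NLS Mut), F-78(WT) against vector and F-78(NLS Mut) against vector, and that over all genes tested was -0.0054, -0.0023 and -0.0017. In these whole-culture libraries, fewer cells that make a transcript and less of it per cell cannot be told apart.

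**Figure D4:**
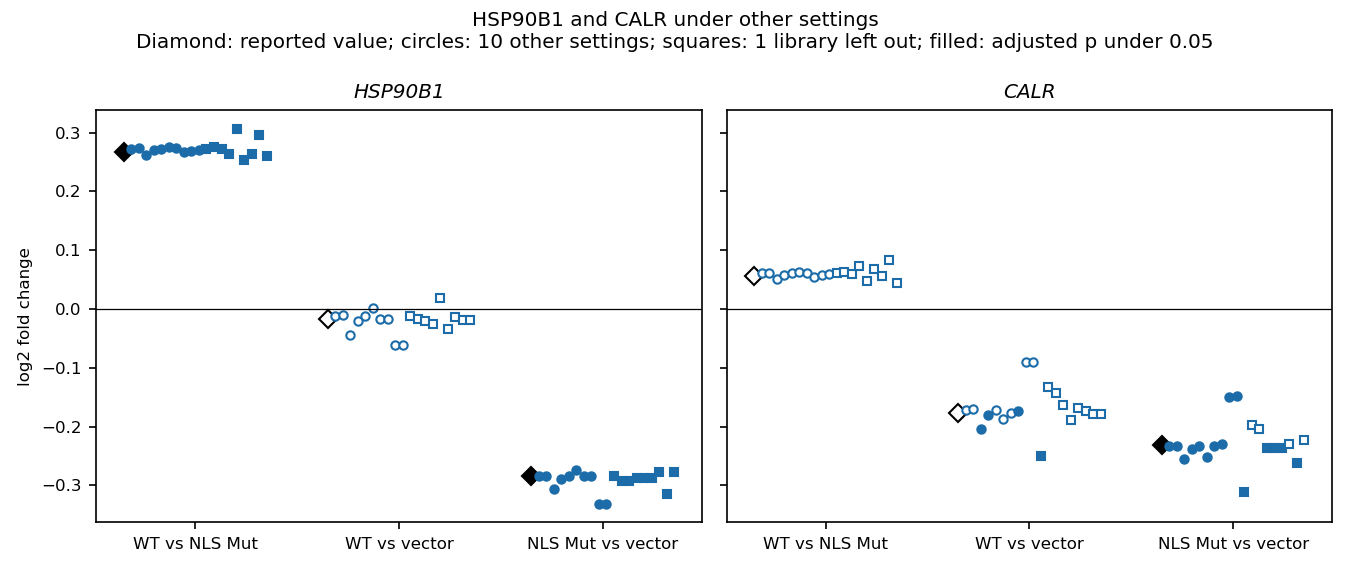
Log2 fold change of HSP90B1 (left) and CALR (right) in the 3 comparisons as reported (diamond), under 10 other settings (circles) and with each of the 9 libraries left out in turn (squares), filled where the adjusted p was under 0.05. The HSP90B1 points against F-78(NLS Mut) lie between 0.25 and 0.31 and those of F-78(NLS Mut) against vector between -0.33 and -0.27, all filled, whereas open and filled points mix for CALR against vector.

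A cytosolic relative of GRP94 went the other way in the comparisons that involve F-78(NLS Mut). HSP90AA1, the stress-inducible HSP90 of the cytosol, was at 1454, 1468 and 1413 CPM with vector, 1670, 1585 and 1659 CPM with F-78(WT) and 1806, 1972 and 1858 CPM with F-78(NLS Mut), and no pair of groups overlapped. It rose with F-78(NLS Mut) against vector (log2 fold change 0.38, SE 0.044, adjusted p = 9.12e-06) and was lower with F-78(WT) than with F-78(NLS Mut) (log2 fold change -0.20, SE 0.044, adjusted p = 0.031). The latter call was lost when any library of either GRP78 plasmid, or vector replicate 2, was left out, with log2 fold changes still between -0.22 and -0.16. Against vector, F-78(WT) gave 0.18 with an adjusted p of 0.0506, and this passed the test under 10 of the 19 other settings. The ratio of HSP90B1 to HSP90AA1 reads, chosen after the values were seen, was 1.69 ± 0.0363 with vector, 1.47 ± 0.0212 with F-78(WT) and 1.07 ± 0.0210 with F-78(NLS Mut) (SD, n = 3). HSP90AB1, the constitutive cytosolic form, did not pass the edgeR test (log2 fold change of F-78(NLS Mut) against vector 0.16, adjusted p = 0.0845) but was called by DESeq2, and neither tool called mitochondrial TRAP1 (0.06, adjusted p = 0.821).

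**Figure D5:**
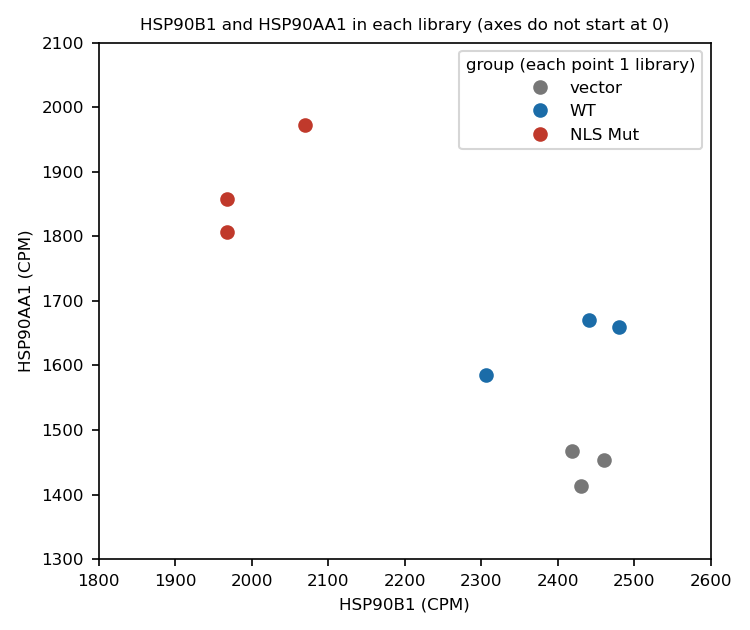
CPM of HSP90B1 (horizontal) against CPM of HSP90AA1 (vertical), 1 point a library, coloured by group, on axes that do not start at 0. The F-78(NLS Mut) libraries sit at the upper left, with 1968 to 2070 CPM of HSP90B1 and 1806 to 1972 CPM of HSP90AA1, and the vector libraries at the lower right.

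PDIA3, the oxidoreductase that works on proteins held by calnexin and calreticulin, followed HSP90B1 in its order of levels without passing the test. It had 899, 923 and 887 CPM with vector, 874, 844 and 891 CPM with F-78(WT) and 803, 818 and 791 CPM with F-78(NLS Mut), so the F-78(NLS Mut) libraries lay below the others. Its log2 fold change was -0.17 in F-78(NLS Mut) against vector (adjusted p = 0.0816) and 0.11 in F-78(WT) relative to F-78(NLS Mut) (adjusted p = 0.30). DESeq2 called PDIA3 in the former.

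Among the 10071 genes that averaged 10 CPM or more, those whose log2 CPM over the 9 libraries was most like that of HSP90B1 were ATPAF2 (Pearson r = 0.98), CAPN5 (0.97), PDIA6 (0.96), LAMB2 (0.96) and CALCOCO1 (0.95). PDIA6, an ER protein disulfide isomerase, averaged 695 CPM with vector, 679 CPM with F-78(WT) and 607 CPM with F-78(NLS Mut), and like HSP90B1 it is one of the 25 genes with an ERSE in a promoter window, whereas the other 4 of these genes are not. CALR and CANX, which have an ERSE too, came at ranks 904 and 2435 (r = 0.56 and 0.27). The part of the element in this likeness was not tested. PDIA3 came at rank 11 with r = 0.94. Of the members, GANAB was the nearest to HSP90B1 (r = 0.73, rank 328), followed by CALR (0.56), while MOGS was at -0.03, and HSP90AA1 was at -0.80. The libraries behind each r are the same 9 and include the group differences, so these values describe likeness in these libraries only.

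The wider pathway was read through 82 genes: oligosaccharyltransferase, assembly of the lipid-linked glycan, mannose trimming and disposal, export lectins, KDEL receptors, GRP94 clients, partners of the members and the HSP90 relatives. Of these, 74 could be tested. HSP90AA1 was the 1 gene called in F-78(WT) relative to F-78(NLS Mut) and in F-78(NLS Mut) against vector, where 0.504% and 0.793% of all genes were called. None was called in F-78(WT) against vector, where 11 had an unadjusted p under 0.05 and DESeq2 called DPM2 and HSP90AA1 among 248 genes. Of all genes tested, 11.6%, 11.7% and 12.2% had an unadjusted p under 0.05 in F-78(WT) relative to F-78(NLS Mut), F-78(WT) against vector and F-78(NLS Mut) against vector, compared with 12, 11 and 15 of the 74 pathway genes (16.2%, 14.9% and 20.3%). The shares over all genes are the background for the list counts that follow. The 12 genes of oligosaccharyltransferase, the enzyme that attaches the glycan, had median log2 fold changes of 0.03, 0.02 and -0.01 in the same order. No gene of this enzyme was called by edgeR or DESeq2 in any of them, and 1 had an unadjusted p under 0.05 in each comparison with vector. The KDEL receptors, which return HSP90B1 and CALR proteins from the Golgi, had no gene called by either tool and none with an unadjusted p under 0.05. The 8 tested partners and relatives of the members had medians of 0.10, 0.08 and -0.01, with 3, 1 and 3 genes at an unadjusted p under 0.05. Assembly of the lipid-linked glycan, with 23 genes, had medians of -0.02, -0.07 and 0.0057 and 3, 5 and 2 such genes. Within it DPM2, a subunit of the enzyme that makes dolichol-phosphate mannose, had a log2 fold change of -0.30 in F-78(WT) against vector and an edgeR adjusted p of 0.102. The 4 tested export lectins had medians of -0.04, -0.06 and 0.08 and 1, 0 and 2 such genes. Of the 12 clients of GRP94, 7 could be tested and none was called by either tool. For TLR1, TLR2 and TLR4, whose group means were at most 1.73 CPM, DESeq2 gave no adjusted p. The clients had medians of 0.13, 0.12 and -0.07, with 2 (TLR1 and TLR4), 1 and 0 genes at an unadjusted p under 0.05 in the same order. The 14 genes for mannose trimming and glycoprotein disposal had medians of 0.05, 0.0041 and -0.03 and 2, 1 and 5 such genes. Of these, FBXO2, which recognizes glycoproteins for degradation, came nearest in edgeR: its log2 fold change was 0.37 in F-78(WT) relative to F-78(NLS Mut) (adjusted p = 0.0633) and -0.36 in F-78(NLS Mut) against vector (adjusted p = 0.0625). DESeq2 called FBXO2 in both, and DPM2 and FBXO2 are named after their values were seen.

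Among the epithelial markers, CDH1 and KRT19, 2 of 6, were higher with F-78(WT) than with F-78(NLS Mut), beside HSP90B1, where 0.3% of all genes were called higher. Their log2 fold changes were 0.27 for CDH1 (adjusted p = 0.0364) and 0.23 for KRT19 (adjusted p = 0.0438), and CDH1 was also lower with F-78(NLS Mut) than with vector (log2 fold change -0.25, adjusted p = 0.0437). In that comparison all 6 epithelial and all 3 lineage markers had log2 fold changes below 0, of which CDH1 alone was called. The summed level of the 6 markers was 4448 to 5107 CPM with vector, 4771 to 4846 CPM with F-78(WT) and 4357 to 4557 CPM with F-78(NLS Mut). The part of this difference in the HSP90B1 result was not tested.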

How the data were processed

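Total RNA of H1975 cells was sequenced in 9 libraries, 3 for each plasmid. Per the labels, the deposited gene counts come from STAR 2.7.9a on GRCh38.p14 (the submitters' processing notes also name DESeq2 1.36.0), and the annotation release is not given in the sources used here. The authors deposited, for each gene, an unstranded count and a count for each strand. The unstranded counts were used, since 50.6% to 51.9% of stranded reads fell on the forward strand. Summary lines (unmapped, multimapped, no feature, ambiguous), 27.6% to 30.7% of the reads, stayed out. Depth was 17671055 to 27476298 counted reads a library.

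Genes kept by filterByExpr (18653) were fitted in 1 model of the 3 groups with the edgeR 4.0.16 quasi-likelihood test after TMM scaling, in R 4.3.3, with Benjamini-Hochberg adjustment over all of them and a threshold of 0.05. An SE was taken as the absolute log2 change over the root of the F statistic, and 95% intervals use the fit's degrees of freedom. DESeq2 1.42.0, other scalings and filters, summed strands, only the groups compared, a replicate block, a correction for GC content and length and leaving out each library were alternatives. The code was tested on simulated data. Coordinates, lengths and GC content are from GENCODE 29, which held all 10 members. Lengths are those of all exons merged, and GC content is that of the longest transcript of a gene.

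The members and lists were chosen with earlier results of these data known. Named were all members, HSPA5, 4 relatives, the called list genes (at most 5 a list and comparison), the 5 genes most like HSP90B1 and genes sharing reads with a member. No 2 libraries of a group agreed within sampling noise.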

Additional observations from a re-analysis of the deposited data

How the results depend on the processing

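HSP90B1 kept direction and call in F-78(WT) relative to F-78(NLS Mut) and in F-78(NLS Mut) against vector under all 19 alternatives, with log2 fold changes of 0.25 to 0.31 and -0.33 to -0.27. Of 570 member values under alternatives, 547 held, 4 lost the call (CALR in F-78(NLS Mut) against vector) and 9 gained one. None reversed a call, and the other 10 were uncalled, changed sign and moved by at least the SE. A value that stayed uncalled and kept its sign counted as held at any size. PRKCSH in F-78(WT) against vector held in this sense although its log2 fold change went from -0.12 to as near 0 as -0.0042. Uncalled values changed sign 35 times, the 10 above included.

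The number of members called in F-78(WT) relative to F-78(NLS Mut) was 1 throughout. In F-78(WT) against vector it went from 0 to 1 (CALR) with library size alone and without a filter, and from 0 to 3 over the left-out libraries. In F-78(NLS Mut) against vector it was 1 to 4 over the left-out libraries and 2 otherwise. Over all genes, the count called in F-78(WT) relative to F-78(NLS Mut), 94, became 288 with DESeq2, 225 without a filter, 315 with only the 2 groups, 424 with the GC and length correction and 27 to 388 over the left-out libraries. In F-78(WT) against vector, 104 became 248 with DESeq2, 289 without a filter, 26 with only the 2 groups, 200 with the GC and length correction and 19 to 1256 over the left-out libraries. In F-78(NLS Mut) against vector, 148 became 408 with DESeq2, 240 without a filter, 286 with the GC and length correction and 33 to 1002 over the left-out libraries. The highest of each range was without vector replicate 1. The cause was not tested.

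The deviations of same-numbered libraries from their group means had correlations of -0.02 to 0.06, and those of other pairs -0.05 to 0.02. As both ranges lie near 0, the numbers were not taken to pair the libraries. With the number as a block, 212, 232 and 230 genes were called in the 3 comparisons in the same order, and 489, 242 and 340 with the block and the GC and length correction. The block called 1 member (CALR) in F-78(WT) against vector and left the other counts of members at 1 and 2. In that check not every library correlated best with its own number. The uncertain CNPY2 row, at 2.46 to 4.99 CPM, has the widest intervals of the members.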
